A study of Mus musculus with 2 samples.

Results

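The transcription factors that mark or direct the skeletal lineages, here the 10 genes Sox9, Sox5, Sox6, Runx2, Sp7, Dlx5, Msx1, Scx, Mkx and Prrx1, were followed in the single-cell RNA sequencing (scRNAseq) of the mouse rib callus at 4 days post injury (dpi). The genes were taken by name, and all 10 are among the 31054 features of the count matrices. The data hold 1 library from Sox9:CreER;R26:tdTomato mice that were also Smo flox/+ (control) and 1 from mice with the same transgenes that were Smo flox/flox (Smo cKO), each made from the calluses of 3 animals that were pooled before capture. All animals carried the tamoxifen-inducible Cre, which is driven by Sox9, one of the factors followed here, and the tdTomato reporter of Cre activity. All received 3 daily tamoxifen injections that ended 5 days before a 3 mm rib resection, and the controls lost 1 copy of Smo in the recombined cells, while the Smo cKO animals lost both. Smoothened, the product of Smo, passes on the Hedgehog (Hh) signal in the cells that receive it. Since each genotype is 1 library, no test compares them, no p-value is given, and intervals are 95% intervals of the counting error alone.

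SOX9 is the transcription factor that commits mesenchymal cells to cartilage, and SOX5 and SOX6 act with it on the genes of the cartilage matrix. RUNX2 and, downstream of it, SP7 (Osterix) are needed to make osteoblasts, and both also act in maturing chondrocytes. The homeodomain proteins DLX5 and MSX1 are expressed in skeletal progenitors. Scleraxis (SCX) and Mohawk (MKX) drive tendon and ligament fibroblasts, and cells with both SCX and SOX9 form the junction of tendon and bone in development. PRRX1 marks mesenchyme and periosteal progenitors broadly.

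On the GRCm38 assembly (mm10), with the annotation of GENCODE vM21, Sox9 lies at chr11:112782224-112787760 on the + strand and Scx lies at chr15:76457452-76459458 on the + strand. All of the following lie on the - strand, Sox5 at chr6:143828425-144781977, Sox6 at chr7:115470872-116038796, Runx2 at chr17:44495987-44814797, Sp7 at chr15:102356606-102367182, Dlx5 at chr6:6877805-6882085, Msx1 at chr5:37820485-37824583 and Prrx1 at chr1:163245119-163313710. The feature list also holds 10 antisense genes next to Sox5, Sox6, Runx2 and Dlx5. Of their 727 control and 608 Smo cKO unique molecular identifiers (UMIs) in connective cells, 684 and 573 belonged to Runx2os1. Whether strand was used in counting is not given in the sources used here.

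The promoter of Runx2 is shown because it holds matches to the motif that RUNX proteins bind, and that of Msx1 because Msx1 had the highest ratio between the genotypes. Both run from 250 bases before to 50 bases after the transcription start, as given by RefSeq on GRCm38.p6. They are written 5′ to 3′ on the strand of the gene. Promoter windows of 5 of the 10 factors were at hand, and whether RefSeq holds others was not tested. Capitals mark matches, on either strand, to TGTGGT (RUNX), ATTGTT (SOX), CAGCTG (an E-box) or GACCACCCA (GLI). The Runx2 window has 3 RUNX matches that do not overlap, as ACCACA. Of all 32851 promoter windows of this length, 16.8% have at least 1 RUNX match and 0.183% have 3 or more. The Msx1 window has none of the 4 motifs, which 10.7% (SOX), 16.3% (E-box) and 0.253% (GLI) of all windows hold.
Runx2, chr17:44814578-44814877: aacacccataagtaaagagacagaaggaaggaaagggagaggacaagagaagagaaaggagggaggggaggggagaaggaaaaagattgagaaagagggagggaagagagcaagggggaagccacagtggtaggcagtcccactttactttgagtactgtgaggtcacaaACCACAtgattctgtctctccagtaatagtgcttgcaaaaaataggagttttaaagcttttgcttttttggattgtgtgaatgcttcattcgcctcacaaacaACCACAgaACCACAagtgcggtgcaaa
Msx1, chr5:37824536-37824835: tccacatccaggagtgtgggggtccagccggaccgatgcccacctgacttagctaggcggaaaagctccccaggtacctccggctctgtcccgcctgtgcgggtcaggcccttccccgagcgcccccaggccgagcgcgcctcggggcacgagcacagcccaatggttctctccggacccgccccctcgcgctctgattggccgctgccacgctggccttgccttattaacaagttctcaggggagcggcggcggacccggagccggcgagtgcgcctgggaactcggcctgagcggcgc

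After leaving out cells with fewer than 200 genes or with 10% or more mitochondrial UMIs, 10057 control cells (104189394 UMIs, median 8367 per cell) and 9507 Smo cKO cells (110863278 UMIs, median 9092) were kept. Cells with at least 1% of UMIs on Col1a1, Col1a2 and Col3a1 and no UMI of Ptprc, the gene of the leukocyte protein CD45, were called connective, and other cells were put in classes by their markers. There were 6398 control (63.6%) and 5115 Smo cKO (53.8%) connective cells, with medians of 10845 and 13376 UMIs. They carried the fibroblast genes Dcn (1099 and 1194 counts per 1000000 UMIs, CPM), Postn (2107 and 2235) and Pdgfra (111 and 89.0). Markers of other cell types were present in some of them and were more frequent in the Smo cKO library. At least 3 UMIs of the 6 muscle markers were found in 2.27% of control and 4.24% of Smo cKO connective cells, of the 4 mural markers in 2.0% and 3.26%, and of the 6 macrophage markers in 3.53% and 5.73%. The muscle, mural and macrophage lists had no gene at 0. The summed level of the muscle markers was 34.0 and 75.2 CPM, of the mural markers 31.8 and 39.6, and of the macrophage markers 53.8 and 62.7. Of the kept barcodes, 599 occurred in both libraries, in 489 of which one copy had at least 10 times the UMIs of the other, and 379 were connective in both.

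Prrx1 had the highest level of the 10 factors in connective cells, with 248 CPM in the control (95% interval 245 to 251) and 254 CPM in the Smo cKO library. It was followed by Scx (101 and 119.7 CPM), Runx2 (66.2 and 66.6) and Sox9 (43.4 and 39.6). Sox5 (10.4 and 7.16), Mkx (6.71 and 5.48) and Sp7 (5.33 and 5.15) formed a lower group, and Msx1 (2.96 and 4.31), Dlx5 (2.14 and 2.28) and Sox6 (1.51 and 1.12) were lowest. The order of the first 4 was the same in both libraries, while the intervals of Mkx (4.97 to 6.03) and Sp7 (4.65 to 5.68) overlapped in the Smo cKO library. The reads come from the 3′ ends of transcripts, so CPM values were not divided by gene length, and levels of different genes compare UMIs rather than molecules of equal capture.

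For shares of cells, UMIs were drawn at random down to 5000 per cell (thinned cells), which left 5551 control and 4466 Smo cKO connective cells and left out 847 and 649 that were shallower. Ptprc-positive cells, thinned alike, give the background share. They were 320 control and 430 Smo cKO cells, while 751 and 858 shallower ones were left out. This class includes the plasmacytoid dendritic cells given below, where Runx2 was high, so its Runx2 share need not be background alone. Prrx1 was detected in 68.2% of control connective cells against 6.25% of Ptprc-positive cells, and in 67.2% against 8.60% in the Smo cKO library. Runx2 was detected in 23.8% and 24.2% (background 5.94% and 7.44%), Scx in 23.1% and 28.5% (2.81% and 4.65%) and Sox9 in 16.3% and 16.1% (2.19% and 2.56%). The other 6 factors were each found in 0.515% to 5.30% of the thinned cells. The median thinned cell had 1 factor detected, 14.7% of control and 13.3% of Smo cKO cells had none, and 43.1% and 44.9% had 2 or more. The 3 SOX genes were seen together in 0 of 5551 control and 1 of 4466 Smo cKO cells at this depth. Sox6 was detected in only 43 and 23 of these cells, so the count does not show whether the 3 are expressed together.

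Of the 10 factors, 9 were at least 2-fold higher in connective than in Ptprc-positive cells in both libraries by their point values, against 20.9% of all genes with enough UMIs. The exception was Sox6, with 1.93-fold in the control and 2.69-fold in the Smo cKO library from 4 and 3 UMIs in Ptprc-positive cells. Sox9 was 8.21-fold and 6.94-fold higher, Scx 10.5-fold and 9.45-fold, Prrx1 11.2-fold and 7.02-fold, and Runx2 3.16-fold and 3.07-fold. Runx2 had the narrowest margin of the abundant factors. The plasmacytoid dendritic cells, where RUNX2 has a known role, had 14 Runx2 UMIs in 28 control cells (173 CPM, 94.4 to 289.8) and 14 in 24 Smo cKO cells (148 CPM, 80.9 to 248), and none of Sox9, Sox5 or Sox6.

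**Figure D1:**
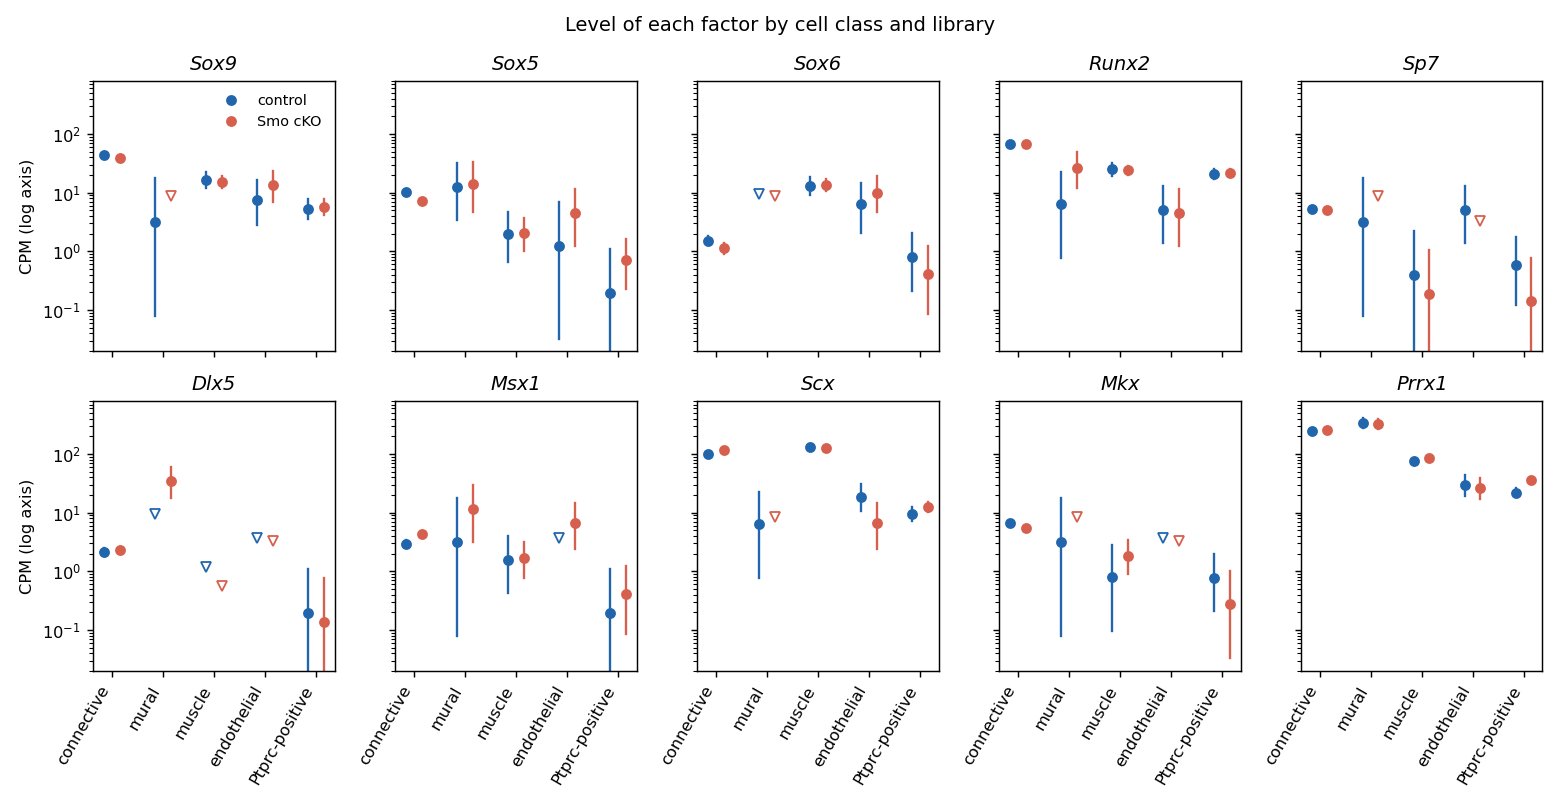
Level of each factor in 5 cell classes (x axis) as CPM on a log axis, with control in blue and Smo cKO in red. Bars are 95% Poisson intervals, cut at the lower edge of the axis, and open triangles mark classes with 0 UMIs at the level of 3 UMIs; Scx is as high in muscle as in connective cells, and Sox6 is higher in muscle.

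Muscle cells departed from this pattern for 2 factors. Scx was at 131 CPM in the 223 control muscle cells (117 to 146) and at 126 CPM in the 450 Smo cKO muscle cells (116 to 136), 1.3-fold and 1.05-fold of its level in connective cells. Sox6, which also represses slow fiber genes in muscle, was at 13.1 and 13.7 CPM, 8.68-fold and 12.2-fold of its connective level. Since muscle cells are those below the collagen gate, matrix genes that go with collagen are low in them by selection, and these give no independent contrast to Scx. Col11a1 was at 0.0573 and 0.0555 of its connective level in muscle cells, Tnmd at 0.0598 and 0.0519, and Fmod at 0.0898 and 0.0660. C1qtnf3, which encodes a secreted protein, was at 1.05-fold and 1.14-fold, as Scx was. Prrx1 was at 0.303 and 0.343 of its connective level. Thinned to 5000 UMIs, Scx was detected in 37.6% of control and 34.3% of Smo cKO muscle cells. Of the 10 factors, 7 were at least 2-fold higher in connective than in muscle cells in both libraries by their point values, against 17.3% of genes, and the exceptions were Scx, Sox6 and Msx1. Dlx5 had 0 UMIs in muscle cells of both libraries, which allows up to 1.19 CPM (control) and 0.557 CPM (Smo cKO), so that for Dlx5 2-fold is not shown in the control.

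Small classes held few UMIs of the factors. Prrx1 reached 345 CPM in 40 control and 327 CPM in 25 Smo cKO mural cells, the cells around vessels, with intervals of 283 to 416 and 269.8 to 393 that lie above the connective value in both. In mural cells Dlx5 had 0 UMIs in the control, which allows 9.50 CPM, and 12 UMIs (34.4 CPM, 17.8 to 60.1) in the Smo cKO library. Sox6, which acts in red cell maturation, had 7 UMIs in the 31 erythroid cells of the Smo cKO library (45.9 CPM, 18.4 to 94.5), while no control cell met the erythroid gate.

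Within connective cells, gates on genes that are not among the 10 factors showed where each factor was concentrated. Cells with 2 or more UMIs of Col2a1, Acan, Col9a1, Matn1, Matn3, Hapln1 and Cnmd were 907 of the control cells (14.2%) and 688 of those of the Smo cKO (13.5%). These cartilage-matrix cells rested mostly on Acan, at 72.8 and 45.2 CPM over all connective cells, while Col2a1 was at 1.85 and 7.80 CPM, Matn1 at 0 UMIs and Col10a1 at 1 and 2 UMIs. Of the 10 factors, 6 were 1.5-fold or more higher inside this gate in both libraries, against 3.61% of genes. None was lower, against 4.79% of genes, a share at which 0 of 10 is no result about the factors. Cells inside the gate were deeper, with medians of 16467 against 10048 UMIs and 19526.5 against 12564. Sp7 went from 1.46 CPM outside to 20.4 CPM inside in the control (14.0-fold) and from 2.52 to 16.3 CPM in the Smo cKO library (6.46-fold). Dlx5 went from 0.691 to 7.74 CPM (11.2-fold) and from 1.16 to 7.02 CPM (6.03-fold), and these were the highest ratios of the 10.

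Scx stood at 269.5 CPM inside against 56.9 outside in the control and at 275 against 83.0 in the Smo cKO library, and 4529 of its 8239 control UMIs came from these cells. Sox6 was at 4.52 against 0.737 CPM in the control and 1.89 against 0.941 in the Smo cKO library. Sox9 itself was 68.9 against 36.8 CPM and 56.6 against 35.6, a smaller ratio than that of Sp7, Dlx5 or Scx. Mkx was 9.16 against 6.08 and 8.17 against 4.85 CPM. Sox5, Runx2, Msx1 and Prrx1 did not reach 1.5-fold in both libraries, and Prrx1 was nearly flat, at 233 against 252 CPM and 246 against 256.

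**Figure D2:**
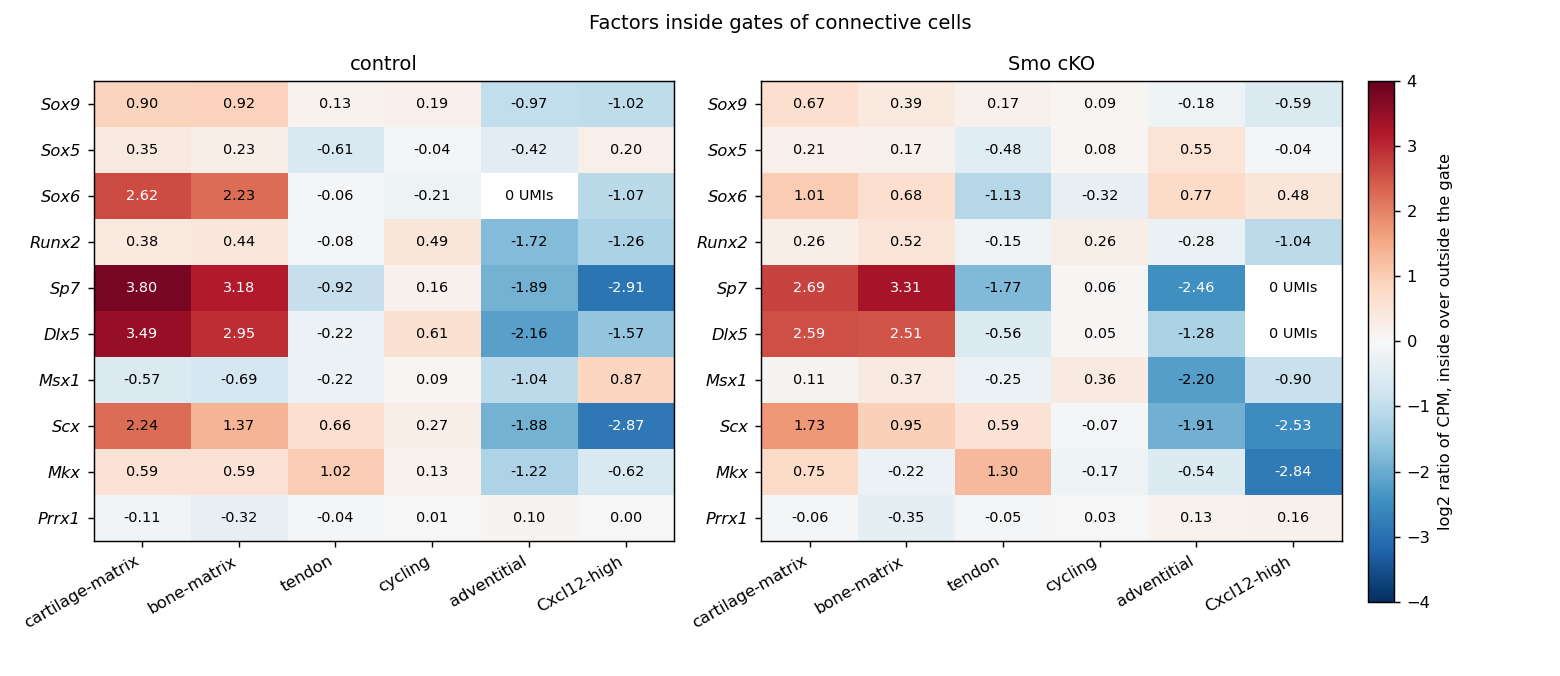
Log2 ratio of CPM inside over outside 6 gates of connective cells (columns) for each factor (rows), with the control at left and Smo cKO at right; red is higher inside. Sp7 and Dlx5 are highest in the cartilage-matrix and bone-matrix gates of both libraries, and Prrx1 stays between -0.35 and 0.16.

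The bone-matrix gate, 2 or more UMIs of Ibsp, Bglap, Bglap2, Alpl, Phex, Dmp1 and Ifitm5, took 180 control (2.81%) and 209 Smo cKO cells (4.09%). Of the 10, 4 factors were 1.5-fold or more higher inside in both libraries, against 4.40% of genes. Sp7 had its highest level of any gate here, 36.6 CPM against 4.05 outside in the control and 35.0 against 3.52 in the Smo cKO library. Dlx5 was at 13.0 against 1.69 CPM and 10.5 against 1.84, and Scx at 244 against 94.6 and 220.0 against 114. Sox6 was at 6.21 against 1.32 CPM in the control, and at 1.75 against 1.09 in the Smo cKO library from 7 UMIs with an interval that includes no difference. The 2 gates shared cells: 129 of 180 control bone-matrix cells and 106 of 209 from the Smo cKO were also in the cartilage-matrix gate. In bone-matrix cells outside the cartilage-matrix gate Scx was at 94.7 and 157 CPM, from 73 of the 787 control UMIs and 276 of the 881 Smo cKO UMIs in that gate, so most of its UMIs there came from the shared cells. In cartilage-matrix cells outside the bone-matrix gate Sp7 was still at 16.5 and 11.6 CPM and Dlx5 at 6.34 and 5.89 CPM. Runx2, the regulator upstream of Sp7, was 88.8 against 65.3 CPM and 93.1 against 65.1, below 1.5-fold.

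The tendon gate, 2 or more UMIs of Tnmd, Kera and Thbs4, rested mainly on Thbs4 (195 and 242 CPM) and took 1992 control (31.1%) and 2138 Smo cKO cells (41.8%). Both tendon factors, and no other, were 1.5-fold or more higher inside in both libraries, against 1.11% of genes. Mkx, which lies at chr18:6934518-7004780 on the - strand, was at 9.84 against 4.86 CPM in the control and 8.02 against 3.25 in the Smo cKO library. Scx was at 131 against 82.7 and 146 against 96.7 CPM, a lesser contrast than in the cartilage-matrix gate. Sp7 went the other way, with 3.41 against 6.47 CPM and 2.26 against 7.68.

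The other 3 gates held none of the factors at a level 1.5-fold or more higher in both libraries, which at the shares of genes given below is no result about the factors. In cells with 2 or more UMIs of the adventitial fibroblast genes Pi16 and Dpp4, 235 control and 94 Smo cKO cells, Scx was at 27.8 against 102 CPM and 32.2 against 121. By point values Sp7, Dlx5 and Msx1 were also lower there, each from 3 or fewer UMIs inside, and the intervals of Dlx5 and Msx1 include no difference in both libraries. In all, 4 of 10 factors were 1.5-fold or more lower, against 10.4% of genes, and 0 were higher, against 7.71%. Cxcl12-high cells, with at least 600 CPM and 2 UMIs of this chemokine gene, were 6.96% of control connective cells (445) and 2.23% of those of the Smo cKO (114). Scx was at 14.3 against 105 CPM and 21.0 against 121 in them, Runx2 at 28.4 against 68.2 and 32.6 against 67.2, and Sox9 at 22.0 against 44.5 and 26.4 against 39.8. By point values Sp7, Dlx5 and Mkx were lower as well, which made 6 of 10 factors 1.5-fold or more lower inside in both libraries, against 8.67% of genes, and 0 higher, against 4.71%. Sp7 and Dlx5 each had 3 control UMIs and 0 Smo cKO UMIs inside. For Dlx5 a count of 0 does not show a lower level, since its upper bound inside is 2.86 CPM against 2.32 CPM outside. Mkx had 18 UMIs inside in the control, with a log2 ratio of -0.62 whose interval (-1.38 to 0.06) includes no difference, and 1 UMI in the Smo cKO library. Sox5 and Prrx1 differed by less than 1.5-fold in both libraries, with Prrx1 at 248 against 248 CPM and 283 against 254. In cycling cells, with 3 or more UMIs of Mki67, Top2a, Cdk1 and Ube2c, 0 factors were 1.5-fold or more higher, against 5.73% of genes, and 0 lower, against 5.72%, shares at which 0 of 10 is no result about the factors. Runx2 was at 80.8 against 57.6 CPM in them in the control (log2 ratio 0.49, 0.41 to 0.57) and at 73.5 against 61.3 in the Smo cKO library (0.26, 0.18 to 0.34). Median UMIs inside against outside were 7680 against 11078 (control) and 7891 against 13453 (Smo cKO) for the adventitial gate. They were 7970 against 11254 and 9260.5 against 13453 for Cxcl12-high, and 20432 against 9142 and 21910 against 10993 for cycling cells. In connective cells with 2000 genes or fewer Scx was at 26.0 and 84.0 CPM, against 107 and 121 in deeper ones. Runx2 was at 34.4 and 46.5 against 69.0 and 67.4. The part of depth in the gate ratios was not tested.

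Grading thinned connective cells by the UMIs of a factor showed more matrix gene UMIs at each step of Scx. The summed level of 13 cartilage matrix genes was 124 CPM in the 4271 control cells without Scx, 346 CPM with 1 UMI, 580 with 2 and 784 with 3 or more. In the Smo cKO library it was 147, 339.9, 425 and 642 CPM. The 8 tendon genes went from 1267 to 2271 CPM and from 1283 to 2299 CPM over the same steps. Sox9 had a lesser and less regular gradient of the cartilage genes, from 191 CPM with none to 271, 432 and 564 CPM in the control, and from 209 to 254, 672 and 304 CPM in the Smo cKO library, the last from 27 cells. Cells with Sp7 had 1041 CPM of cartilage genes against 193 without in the control and 786 against 217 in the Smo cKO library, and cells with Dlx5 had 895 against 205 and 993 against 218. Over the steps of Prrx1 the cartilage level was between 199.5 and 219 CPM in the control and between 202 and 259.6 CPM in the Smo cKO library, and the tendon level between 1329 and 1427 CPM and between 1364 and 1460.2 CPM. These levels describe cells of the same library, which are not replicates. Over all connective cells, most of the cartilage sum was Col11a1 (132 and 157 CPM) and Acan (72.8 and 45.2). The largest of the tendon list were Thbs2 (485 and 571) and Col14a1 (361 and 271), while Tnmd was at 33.3 and 57.2. The sums therefore do not show that every gene of a list followed a factor. The cartilage sum also holds Col2a1. Before thinning, 570 of its 605 Smo cKO UMIs came from 10 connective cells, and the steps into which these cells fell were not tested.

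**Figure D3:**
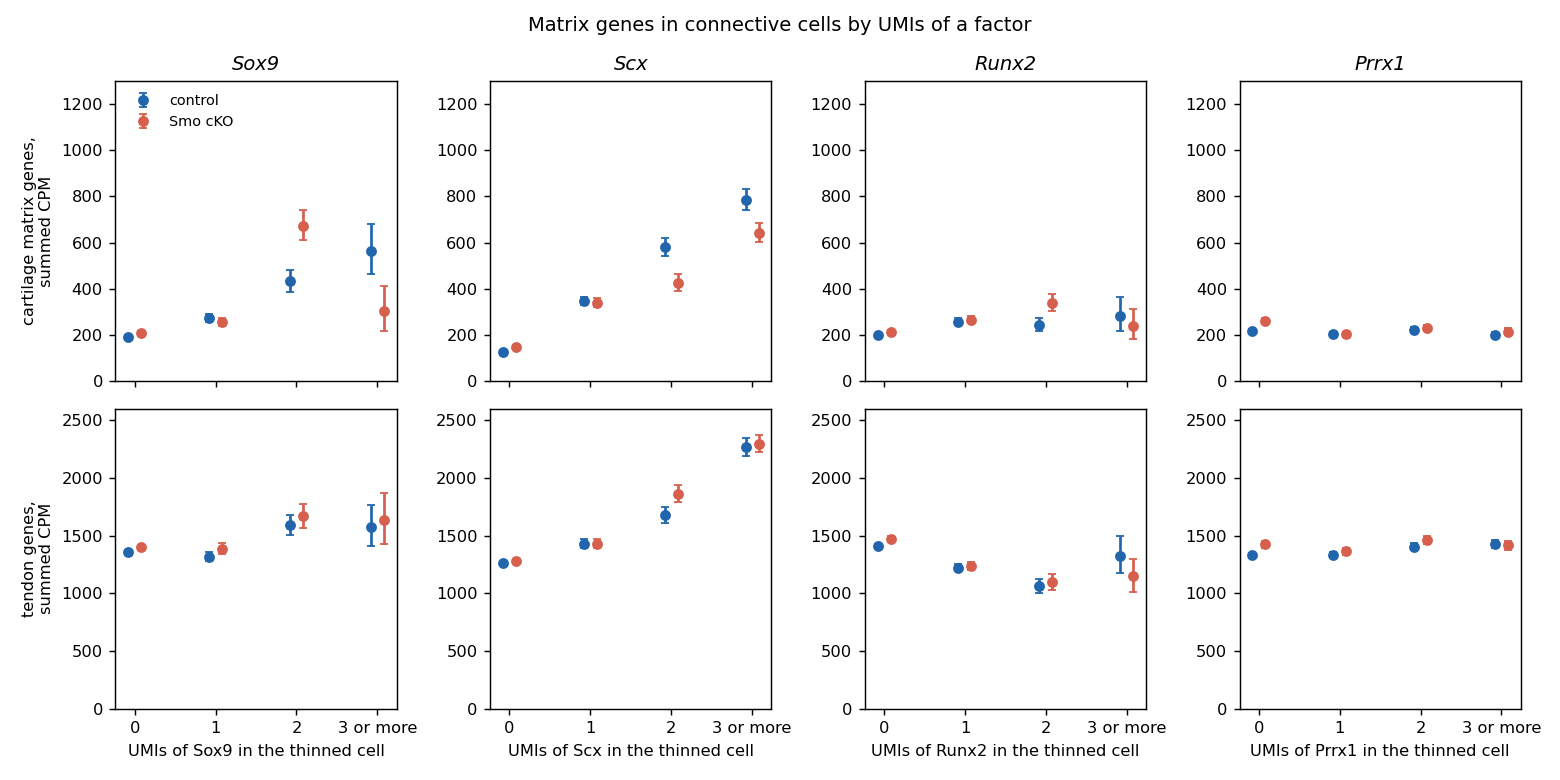
Summed CPM of the cartilage matrix genes (upper row) and the tendon genes (lower row) in thinned connective cells with 0, 1, 2 and 3 or more UMIs of Sox9, Scx, Runx2 or Prrx1, with control in blue and Smo cKO in red and bars for 95% Poisson intervals. Both sums are higher at each step over the steps of Scx in both libraries, to 784 and 642 CPM for cartilage genes, and stay nearly level over those of Prrx1.

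Genes that followed a factor most closely were ranked by the ratio of their CPM in thinned cells with and without it, taking the lower of the 2 libraries, over 2179 genes. The secreted or matrix genes Fmod (5.82-fold and 4.48-fold), C1qtnf3 (3.13-fold and 2.66-fold) and Col11a1 (3.26-fold and 2.65-fold) stood first for Scx. Fmod, a small proteoglycan of tendon, was also first for Mkx (2.48-fold and 2.54-fold), before 1500015O10Rik and Prg4, and first for Sox9 (1.77-fold and 1.48-fold), before Hbegf and Hist1h2ap. For Runx2 the first was Mmp13 (1.48-fold and 1.91-fold), a collagenase that RUNX2 is known to activate, before Cxxc5 and Smc2. Mmp13 was not particular to Runx2, since its ratios were higher in cells with Scx (2.27-fold and 2.31-fold). Sox5 had Serpine2, Tppp3 and Htra3, and Prrx1 had Cxcl5, Il33 and Zfp469, all at 1.42-fold or less. Sox6, Sp7, Dlx5 and Msx1 had too few thinned cells to be ranked.

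Co-detection was measured in thinned cells as the odds ratio of finding 2 factors in the same cell, for all 45 pairs. Of these, 9 pairs had odds ratios with intervals above 1 in both libraries, that is, they were found together more often than independent detection gives. Pairs of other genes were not measured, so the count of 9 has no background share and is no result about the factors. Of the 9, 4 were also found more often when cells were thinned to 10000 UMIs and when other UMIs were drawn. These 4 were Sox9 with Scx, and the 3 pairs among Sp7, Dlx5 and Scx. Scx was detected in 79 of the 117 control cells with Sp7 (67.5%, 58.2 to 75.9) against 22.1% of cells without, and in 44 of 87 (50.6%) against 28.1% in the Smo cKO library. It was detected in 32 of 44 control cells with Dlx5 (72.7%) against 22.7% without, and in 31 of 58 (53.4%) against 28.2%. Dlx5 was in 9.40% of control cells with Sp7 against 0.607% without, and in 4.60% against 1.23% in the Smo cKO library, from 11 and 4 cells.

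Scx was detected in 29.7% of control cells with Sox9 against 21.8% of those without (odds ratio 1.52), and in 34.2% against 27.5% in the Smo cKO library (1.37). Sox9 and Sox5 were not found together more often, with 38 control and 23 Smo cKO cells and odds ratios of 0.759 and 0.878, whose log2 intervals of -0.90 to 0.10 and -0.83 to 0.45 include 0. Sox9 and Runx2 were together in 245 control cells (odds ratio 1.23) and 161 Smo cKO cells (0.885). Runx2 was in 33.3% of control cells with Sp7 against 23.6% without, and in 31.0% against 24.1% in the Smo cKO library, where the interval included an odds ratio of 1. With cells thinned to 10000 UMIs, and again with other UMIs drawn, Runx2 and Sp7 were found together more often in both libraries. The same held for Sox6 and Dlx5, so whether these pairs are called depends on the thinning. Without the cells of the cartilage-matrix, bone-matrix and tendon gates, none of the 4 recurring pairs was found more often in both libraries. The 3 pairs that were, Sox5 with Sox6, Sox6 with Scx and Runx2 with Msx1, were all among the first 9. Sp7 and Prrx1 were the only pair found together less often in both libraries, at odds ratios of 0.686 and 0.651 with intervals that barely leave out 1, and this was not seen with either other thinning.

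**Figure D4:**
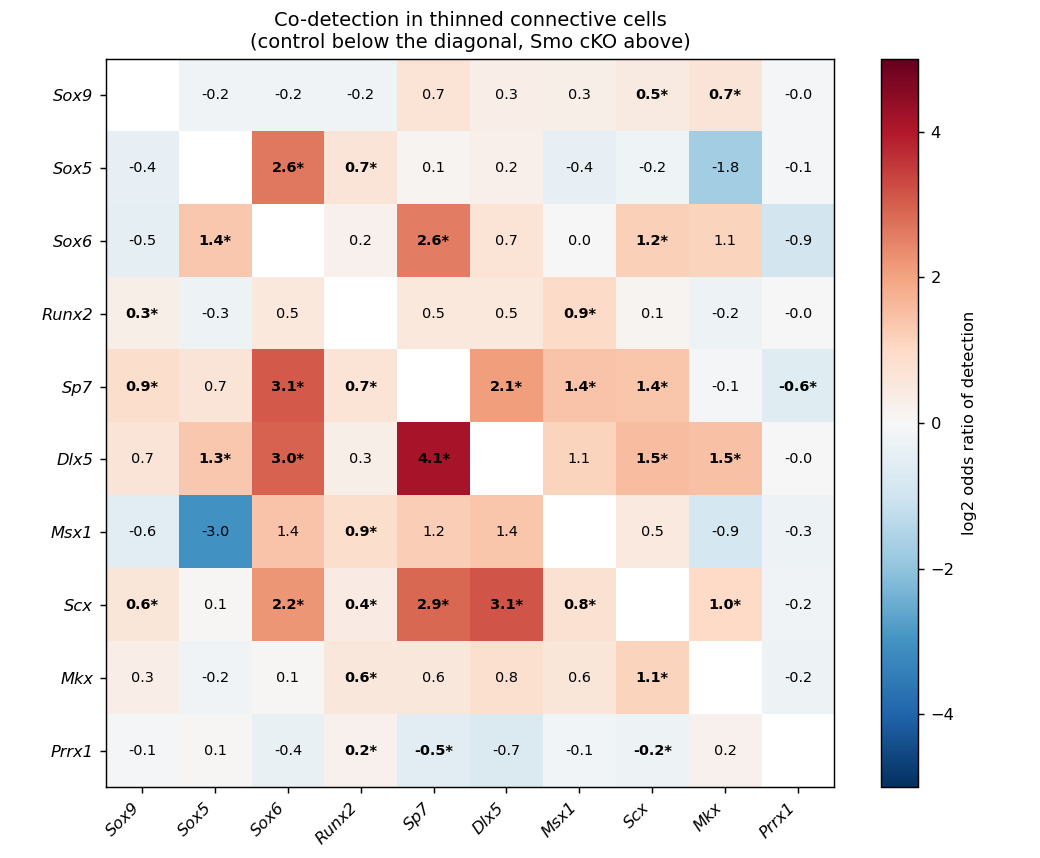
Log2 odds ratio of detecting 2 factors in the same thinned connective cell, for 45 pairs, with the control below the diagonal and Smo cKO above. Asterisks and bold type mark 95% intervals that leave out 0; the pairs among Sp7, Dlx5 and Scx are marked in both libraries.

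Between the genotypes, none of the 10 factors differed by 1.5-fold or more in connective cells, where 5.11% of 13765 genes were at least 1.5-fold higher in the Smo cKO library and 3.82% at least 1.5-fold lower. At these shares 0 of 10 is no result about the factors. Of the 10, 5 were higher and 5 lower, with a median log2 ratio of -0.02 against 0.02 for all genes. Smo itself was at 19.3 and 12.8 CPM (log2 ratio -0.59, -0.71 to -0.48). Of the genes that respond to Hh and had enough UMIs, Ptch1 was at 12.3 and 10.6 CPM and Gli1 at 0.720 and 0.722 CPM.

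Of the chondrogenic trio, Sox5 had the lowest ratio of the 10, at 10.4 CPM (853 UMIs) and 7.16 CPM (555 UMIs), a log2 ratio of -0.54 (-0.70 to -0.38). It was lower in the Smo cKO library both inside (-0.64) and outside (-0.50) the cartilage-matrix gate. The point value was also lower in all 13 alternative ways of choosing or scaling the cells. These ways share cells and UMIs, so they are not independent support. With the limit of 2000 genes the interval, from 60 and 19 UMIs, included 0 (-1.39 to 0.21). It also did so without barcodes of both libraries (-1.69 to 0.02). The cartilage-matrix gate asks for a fixed 2 UMIs and rests mostly on Acan, which was itself at 72.8 and 45.2 CPM, while the Smo cKO cells were deeper. It may therefore not take like cells in the 2 libraries. This was not tested, and it limits every genotype ratio given inside or outside the gate. Sox6 was at 1.51 and 1.12 CPM (-0.43, -0.84 to -0.02), from 124 and 87 UMIs. Inside the cartilage-matrix gate it was at 4.52 and 1.89 CPM (-1.26, -1.94 to -0.62). Outside that gate the levels were 0.737 and 0.941 CPM (0.35, -0.22 to 0.93). Inside the tendon gate Sox6 was lower too, from 45 and 25 UMIs (-1.10, -1.87 to -0.36). The bone-matrix gate gave -1.83 (-3.31 to -0.53), from 20 and 7 UMIs. Both gates shared cells with the cartilage-matrix gate, so these ratios are not independent of the one given for it. Of the bone-matrix UMIs of Sox6, 3 (control) and 2 (Smo cKO) lay outside the cartilage-matrix gate. Of cartilage-matrix cells, 37.0% (control) and 48.3% (Smo cKO) were also tendon-gate cells. In connective cells in none of these gates Sox6 was higher, at 0.676 and 1.31 CPM (0.95, 0.23 to 1.69). Connective cells with 3 or more muscle-marker UMIs had Sox6 at 5.81 and 4.86 CPM. In the others it was also lower in the Smo cKO library. The part of such cells in the Sox6 ratio was not tested. Sox9 was at 43.4 and 39.6 CPM (-0.13, -0.20 to -0.06). In bone-matrix cells Sox9 was at 79.5 and 51.2 CPM (-0.64, -0.91 to -0.36), against a ratio of -0.11 outside that gate. Inside other gates the Sox9 log2 ratio was -0.28 (cartilage-matrix), -0.12 (tendon) and -0.19 (cycling). It was 0.64 in adventitial and 0.26 in Cxcl12-high cells, with intervals that include 0. The bone-matrix gate took 2.81% and 4.09% of connective cells, and 71.7% and 50.7% of those taken were also in the cartilage-matrix gate. Whether it takes like cells in the 2 libraries was not tested, which also limits its Sox6 ratio.

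Among the osteogenic factors, Runx2 was at 66.2 and 66.6 CPM (0.01, -0.05 to 0.06) and Sp7 at 5.33 and 5.15 CPM (-0.05, -0.25 to 0.15). For Sp7 the ratio differed in sign between connective cells inside and outside the cartilage-matrix gate, which was not tested. Inside the cartilage-matrix gate it was 20.4 and 16.3 CPM (-0.32, -0.57 to -0.08), and outside it 1.46 and 2.52 CPM (0.79, 0.41 to 1.17). Dlx5 was at 2.14 and 2.28 CPM (0.10, -0.21 to 0.41), with 7.74 and 7.02 CPM inside that gate and 0.691 and 1.16 CPM outside. The log2 ratio of Dlx5 was 0.69 when cells were thinned to 5000 UMIs and 0.74 as a mean of the CPM of single cells. Msx1 had the highest ratio of the 10, at 2.96 and 4.31 CPM (0.54, 0.30 to 0.78), from 243 and 334 UMIs. In connective cells with 3 or more mural-marker UMIs Msx1 was at 2.41 and 9.96 CPM, against 2.98 and 4.06 in the rest. In those with 3 or more endothelial-marker UMIs, 17 control and 55 Smo cKO cells, Msx1 was at 14.2 and 14.1 CPM. In connective cells with no UMI of any other type's markers its log2 ratio was 0.15.

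Of the tendon factors, Scx was at 101 and 119.7 CPM (0.25, 0.21 to 0.29), from 8239 and 9281 UMIs. Inside the cartilage-matrix gate it was level, at 269.5 and 275 CPM (0.03, -0.03 to 0.09), and outside it was at 56.9 and 83.0 CPM (0.54, 0.48 to 0.60). Whether the gate takes like cells in the 2 libraries was not tested, as Acan, on which it mostly rests, was lower in the Smo cKO library. Among connective cells with 3 or more muscle-marker UMIs, which were 2.27% and 4.24% of the cells, Scx was at 131 and 134 CPM, and in the others at 99.1 and 118 CPM. The part of such cells in these ratios was not tested further. Mkx went the opposite way, at 6.71 and 5.48 CPM (-0.29, -0.48 to -0.11). Prrx1 was at 248 and 254 CPM (0.03, 0.01 to 0.06).

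Several of these ratios differed with the depth of the cells. The study's own upper limit of 2000 genes per cell keeps 1564 control and 889 Smo cKO connective cells, and in these Scx was at 26.0 CPM (169 UMIs) and 84.0 CPM (255 UMIs), with a log2 ratio of 1.69 (1.41 to 1.98). Sp7 was at 2.0 and 5.27 CPM (1.40, 0.25 to 2.58), from 13 and 16 UMIs, and Dlx5 had 2 and 11 UMIs (3.56, 1.36 to 6.77). In the 4834 and 4226 connective cells above that limit, the log2 ratios were 0.18 for Scx, -0.13 for Sp7 and -0.04 for Dlx5. Sox6 had 7 and 1 UMIs in the shallow cells, too few for a direction (-7.20 to 1.25). Among these shallow cells 270 control and 139 Smo cKO barcodes also occurred in the other library. Without every barcode found in both, the Scx ratio was 1.82 and that of Sp7 1.43.

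**Figure D5:**
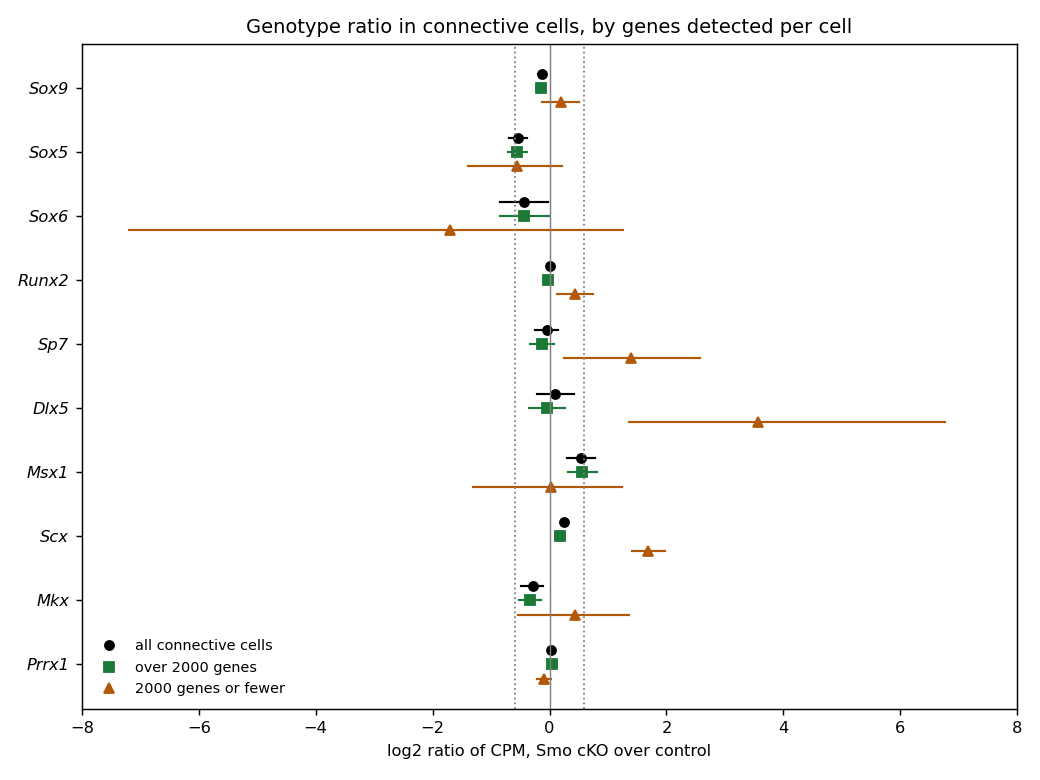
Log2 ratio of CPM, Smo cKO over control (x axis), for each factor in all connective cells (black), those over 2000 genes (green) and those with 2000 genes or fewer (orange), with 95% intervals of the counting error. Dotted lines mark 1.5-fold; Scx, Sp7 and Dlx5 lie beyond it in shallow cells and within it in deep cells.

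The tdTomato reporter, switched on by the Sox9-driven Cre, was rarely read. Tamoxifen ended 5 days before the resection, so the reporter traces cells with earlier Cre activity, while the Sox9 UMIs are those at 4 dpi. A tdTomato UMI was found in 49 control connective cells (0.766%) and in 110 Smo cKO connective cells (2.15%). It was found in 0.890% of control cells with a Sox9 UMI (0.519 to 1.42) and 0.713% of those without (0.488 to 1.01), and in 2.62% (1.91 to 3.51) against 1.92% (1.49 to 2.44) in the Smo cKO library. Cells with a Sox9 UMI were deeper in both libraries, with medians of 15542 against 9289 UMIs in the control and 17871 against 11572.5 in the Smo cKO library. Ptprc-positive cells without Sox9 gave 0.190% and 0.557%, at lower medians of 3202 and 3732.5 UMIs. Muscle cells without Sox9 gave 0.538% in the control (1 of 186 cells) and 2.86% in the Smo cKO library (11 of 385). Muscle cells with Sox9 gave 0 of 37 and 2 of 65 (3.08%). Reads of the reporter were therefore not particular to connective cells in the Smo cKO library. In tdTomato-detected connective cells Sox9 was at 54.5 CPM (control, 41 UMIs) and 34.3 CPM (Smo cKO, 80 UMIs), and Scx at 121 and 145 CPM. At this reporter depth a cell without a tdTomato UMI cannot be taken as outside the Sox9 lineage.

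Other genes of the same programs, from lists written with earlier results of these data known, give the setting for the 10 factors. Of all genes with enough UMIs, 5.11% were 1.5-fold or more higher and 3.82% lower. As the lists were not chosen blind to these data, their counts, here and in the next paragraph, are no result about the programs. Of 35 other skeletal transcription factors, 28 had enough UMIs, and 6 were 1.5-fold or more higher in the Smo cKO library and 1 lower, with a median log2 ratio of 0.14. Meox1 (0.97) and Foxc2 (0.90) had the highest ratios, and Tbx18 (-0.67) and Trps1 (-0.33) the lowest. Of 9 cartilage matrix genes with enough UMIs, 1 was higher and 2 lower. Acan was at 72.8 and 45.2 CPM (-0.69) and Col9a1 at 1.87 and 0.80 CPM (-1.22). Col2a1 was at 1.85 and 7.80 CPM, but 570 of its 605 Smo cKO UMIs came from 10 cells and a similar share of cells had any (0.719% and 0.88%). Matn3 had a log2 ratio of 0.35.

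Of 10 bone genes with enough UMIs, 2 were 1.5-fold or more higher and none lower, with a median log2 ratio of 0.35. They were Ibsp (39.7 and 65.4 CPM, 0.72) and Dmp1 (24 and 55 UMIs, 1.28), the genes of a mineral-binding matrix protein and of an osteocyte protein, while Alpl was at 0.02 and Col5a2 at -0.19. Of the 8 tendon genes, 3 were higher, Cilp2 (1.05), Tnmd (0.78) and Kera (0.78), and Comp was lower (-1.19), followed by Col14a1 (-0.42). Tnmd, a membrane protein of mature tenocytes and a known target of SCX, was at 33.3 and 57.2 CPM. Fmod, the gene that followed Scx most closely, went the other way, at 137 and 104 CPM (-0.40, -0.44 to -0.36). In all, 5 of the 8 tendon genes were higher and 3 lower by point values.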

How the data were processed

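Single-cell RNA was read on the 10x Genomics platform from 1 control and 1 Smo cKO library, each pooled from 3 animals. The deposited values are raw UMI counts per gene and cell barcode, which the authors made with Cell Ranger 3.0.2 on mm10, and no normalization had been applied. From these counts, cells with at least 200 genes and under 10% of UMIs on the 13 mitochondrial genes were kept. The study's upper limit of 2000 genes was not applied, since most connective cells exceed it, and is an alternative. Cells were put in classes by marker gates, UMIs were summed per class and library, and levels are CPM of all UMIs of those cells. Poisson intervals, exact intervals of the ratio of 2 Poisson counts and Clopper-Pearson intervals of shares are at 95% and cover counting error only. A count of 0 was given the limit of 3 UMIs for levels. Ratios were counted as past 1.5-fold among genes with at least 50 UMIs over both libraries. Shares of cells were compared after thinning each cell to 5000 UMIs, and 0.5 was added to each cell of the co-detection tables. With 1 library per genotype no test was run and no p-value is given.

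All 10 factors were named in full. From the other lists the 2 highest and 2 lowest ratios and the counts past 1.5-fold were named, and for each factor the 3 genes most alike among those with 50 CPM or more, where at least 100 thinned cells of both libraries held the factor. The factors, lists and gates were chosen with earlier results of these data known. No doublet caller was run, and cells with any UMI of the markers of other types were left out as an alternative. Alternatives that used barcodes, thinning, or cells over 2000 genes were added after seeing the data. The scripts were tested on simulated counts. Promoter sequences and motif counts come from RefSeq windows. Python 3.11.15, NumPy 2.4.6, SciPy 1.17.1, pandas 2.3.3 and matplotlib 3.10.9 were used.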

Additional observations from a re-analysis of the deposited data

Results flagged for a closer look

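Cells that met no class gate, 1911 control and 2191 Smo cKO cells, enter no comparison above. Their median depths were 2526 and 3389 UMIs. The factors whose ratios between the libraries had intervals that leave out 0 in these cells are given here. The share of all genes with such intervals was not computed, so the number of these factors is no result about them. Sox9 was at 19.5 and 28.0 CPM, a log2 ratio of 0.52. Msx1 was at 1.07 CPM (10 UMIs) and 3.59 CPM (55 UMIs), a log2 ratio of 1.74. Prrx1 was at 106 and 149 CPM, a log2 ratio of 0.48. Mkx was lower, at 2.68 CPM (25 UMIs) and 1.44 CPM (22 UMIs), a log2 ratio of -0.90 (-1.80 to -0.01). The identity of these cells is not known, and their makeup in the 2 libraries was not tested.

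Scx had a log2 ratio of 0.25 in connective cells and of -1.49 in endothelial cells, where the counts were 15 and 6 UMIs and the interval was -3.15 to -0.05. The difference between the classes was not tested.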

How the results depend on the processing

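No paired analysis was possible because each genotype is 1 library, and for the same reason no replicate could be left out. Over 13 other ways of choosing or scaling the connective cells, 89 of 130 log2 ratios of the factors stayed within the counting interval of the value reported and 41 did not. Of 30 differences in shares of cells, 16 stayed within it and 14 did not. With the limit of 2000 genes the ratios were 0.19 for Sox9, -1.71 for Sox6, 0.43 for Runx2, 1.40 for Sp7, 3.56 for Dlx5, 0.02 for Msx1, 1.69 for Scx, 0.43 for Mkx and -0.09 for Prrx1, with 3 factors past 1.5-fold higher and 1 lower. Counts of factors given here have no minimum of UMIs, and of these 4 only Scx keeps the 50 UMIs asked for elsewhere. No share of all genes past 1.5-fold is at hand for the alternative settings, so these counts are no result about the factors. With that limit and no barcodes of both libraries they were 0.11 for Sox9, -0.80 for Sox5, -1.70 for Sox6, 0.48 for Runx2, 1.43 for Sp7, 3.43 for Dlx5, 0.19 for Msx1, 1.82 for Scx, 0.68 for Mkx and -0.12 for Prrx1, with 4 higher and 2 lower. With only cells over 2000 genes Scx was at 0.18. With a collagen gate of 0.5% Scx was at 0.20, and 1 factor was higher (Msx1) and 1 lower (Sox5). With a gate of 3% the values were -0.01 for Sox9, -1.17 for Sox6, 0.15 for Runx2, 0.43 for Scx and 0.08 for Prrx1, with 1 lower. Without cells holding markers of other types they were -0.20 for Sox9, 0.11 for Runx2, 0.29 for Sp7, 0.76 for Dlx5, 0.15 for Msx1, 0.18 for Scx and 0.09 for Prrx1, with 1 higher (Dlx5) and 2 lower (Sox5 and Sox6). As a mean over cells Dlx5 was at 0.74 and Scx at 0.36, with 1 higher and 1 lower. Thinned to 5000 UMIs the values were -0.02 for Sox9, 0.06 for Runx2, 0.69 for Dlx5, 0.32 for Scx, -0.11 for Mkx and 0.01 for Prrx1, with 2 higher. Without barcodes of both libraries 1 factor was lower (Sox5). The number of pairs found together more often was 3 without lineage-gated cells, and the number found less often was 0 with 10000 UMIs, with other UMIs drawn and without lineage-gated cells. The causes of these shifts were not tested. Sox6, Dlx5, Msx1 and Sp7 rest on 87 to 437 UMIs per library, which limits their precision most.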
